A study of Mus musculus with 6 samples.

Results

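The 10 genes described here mark either the tip of the intestinal villus or the proximal part of the small intestine: Susd2, Ly6m, Dnase1, Klf4, Egfr, Krt20, Creb3l3, Gata4, Pdx1 and Hsd17b6. They were chosen by their roles and on earlier results of the same 6 arrays, in which Susd2, Ly6m, Dnase1 and Hsd17b6 were already known to be much lower in ISR2 mucosa. Their differences between the groups are therefore given as a description, and the p-values of the fit over all genes say only which of them passed its threshold. All 10 had exactly 1 probe set with a single gene symbol, and they are 10 of 19938 genes measured. The arrays measured RNA of mucosal scrapings of the jejunum, which lies between duodenum and ileum. The mice were C57/BL, 8 to 10 weeks old and on regular chow. The 3 ISR2 arrays are from transgenic mice with SREBP2 overactivity specific to the intestine, per the title of the series, and the 3 wild type arrays are from littermates without it. SREBP2 is the transcription factor of cholesterol synthesis genes. The labels do not give the construct or promoter of the transgene. It is also not stated that each array is a separate animal, and the p-values measure only the spread between these samples, which may be technical. Values are log2 intensities after RMA, a method meant to put all arrays on a common distribution. Array medians still lay between 6.04 and 6.19, and the number of arrays limits the precision.

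Enterocytes are born in the crypt, move up the villus and are shed at its tip, and they change their genes on the way. Cells near the base make antimicrobial proteins, cells of the middle carry sugars and amino acids, and cells at the tip switch on genes of adhesion, purine breakdown and lipoprotein secretion. A second axis runs along the gut, where GATA4 and PDX1 keep the proximal pattern and the ileum takes up bile acids and vitamin B12. A scraping pools all of these cells, so neither position was measured here, and fewer cells of a type cannot be told apart from less RNA per cell. The labelled tissue carried its defining markers: the 8 enterocyte genes listed for this check, such as Vil1 and Fabp2, averaged 12.59 to 12.61 in the wild type arrays and 12.24 to 12.48 in the ISR2 arrays.

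Start regions are shown for 4 of these genes because several of the 10 encode transcription factors, and because the genes shown differ in how far they stood apart between the groups: Dnase1 and Hsd17b6 fell, Krt20 was lower without passing, and Creb3l3 differed little. RefSeq sequences on GRCm38.p6 were at hand for 7 of the 10 genes, and not for Susd2, Ly6m and Gata4. The lines below give the 250 bases before a RefSeq start, 5′ to 3′ on the strand of the gene, with motif matches in capitals. The motifs, searched on both strands, were AGATAA for GATA factors, GGGNGTGG for KLF factors, TGACGT for the CREB type, TGANTCA for AP-1, TAATTA for homeobox factors such as PDX1, TTTATG for CDX factors, TCACNCCAC for SREBP and TATAAA for the TATA box. No match shown overlaps another.
Dnase1, start 1, chr16:4036786-4037035, plus strand: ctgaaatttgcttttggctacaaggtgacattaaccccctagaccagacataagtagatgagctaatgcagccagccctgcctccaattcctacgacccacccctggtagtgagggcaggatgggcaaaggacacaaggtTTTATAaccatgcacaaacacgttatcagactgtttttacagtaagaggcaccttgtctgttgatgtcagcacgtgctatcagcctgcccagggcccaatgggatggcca
Hsd17b6, start 1, chr10:128007612-128007861, minus strand: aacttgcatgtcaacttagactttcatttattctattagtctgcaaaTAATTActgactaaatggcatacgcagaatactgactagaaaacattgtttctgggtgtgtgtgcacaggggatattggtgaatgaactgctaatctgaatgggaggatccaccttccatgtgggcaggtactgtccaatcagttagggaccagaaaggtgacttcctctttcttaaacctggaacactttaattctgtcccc
Krt20, start 1, chr11:99438154-99438403, minus strand: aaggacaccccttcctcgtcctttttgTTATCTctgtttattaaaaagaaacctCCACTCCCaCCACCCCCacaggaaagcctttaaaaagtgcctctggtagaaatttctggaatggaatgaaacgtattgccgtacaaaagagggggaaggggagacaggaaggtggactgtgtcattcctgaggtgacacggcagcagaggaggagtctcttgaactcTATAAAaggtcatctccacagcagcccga
Creb3l3, start 1, chr10:81092592-81092841, minus strand: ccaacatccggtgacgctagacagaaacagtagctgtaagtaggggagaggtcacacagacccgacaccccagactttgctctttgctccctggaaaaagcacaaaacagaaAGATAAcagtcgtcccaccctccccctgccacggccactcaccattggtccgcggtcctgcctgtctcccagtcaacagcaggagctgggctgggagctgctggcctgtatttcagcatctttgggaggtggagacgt
Creb3l3, start 2, chr10:81098873-81099122, minus strand: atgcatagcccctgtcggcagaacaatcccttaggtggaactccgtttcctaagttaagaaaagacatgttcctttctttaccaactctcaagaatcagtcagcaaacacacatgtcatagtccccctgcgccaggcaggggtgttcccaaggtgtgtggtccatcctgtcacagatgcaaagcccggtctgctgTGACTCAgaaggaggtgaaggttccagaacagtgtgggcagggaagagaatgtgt

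The Krt20 region held a GATA match 223 to 218 bases before the start, KLF matches at 196 to 189 and at 187 to 180, and a TATA match at 29 to 24. Hsd17b6 held a homeobox match at 203 to 198, and the first Dnase1 region held only a TATA match, at 110 to 105 and on the opposite strand. Start 1 of Creb3l3 had a GATA match and start 2 an AP-1 match. The regions of Klf4, Egfr and Pdx1 and the second start of Hsd17b6 held none of the motifs. No region of the 7 genes searched held the SREBP letters, and Susd2, Ly6m and Gata4 were not searched. Over the 32851 regions in the table, 9.99% held the GATA letters, 15.9% the KLF letters, 6.47% the CREB letters, 6.75% those of AP-1, 4.84% those of homeobox factors, 10.8% those of CDX factors, 1.05% those of SREBP and 12.4% those of the TATA box. The Klf4 region had 32 CG pairs and the Hsd17b6 region shown had 1, against a median of 6. These matches are letters in a window and were not tested for binding.

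In ISR2 jejunum 4 of the 10 genes fell: Susd2 12.3-fold, Ly6m 7.94-fold, Dnase1 5.02-fold and Hsd17b6 2.19-fold. None rose, and 6 did not pass an adjusted p of 0.05 in limma, which compares each gene's difference with the spread between arrays and adjusts by Benjamini-Hochberg over all genes. Over all genes 1.23% were called lower, 1.79% higher and 3.02% in either direction, which are 246, 356 and 602 genes. Centring each array on its median changed the split to 155 lower and 415 higher, with the same number of members called, 4. Regarding the members, since this contrast helped to choose them, nothing is read from the comparison of the shares. In 7 of the 10 genes all 3 ISR2 arrays lay below all 3 wild type arrays, a separation seen downward in 13.9% of all genes and in either direction in 19.8%. The median difference of the 10 genes was -0.55 on the log2 scale, and that of all genes was -0.06. All 10 were lower in mean, as were 62.6% of all genes. An exact permutation test of 3 arrays against 3 cannot give a two-sided p below 0.1 for a single gene.

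**Figure D1:**
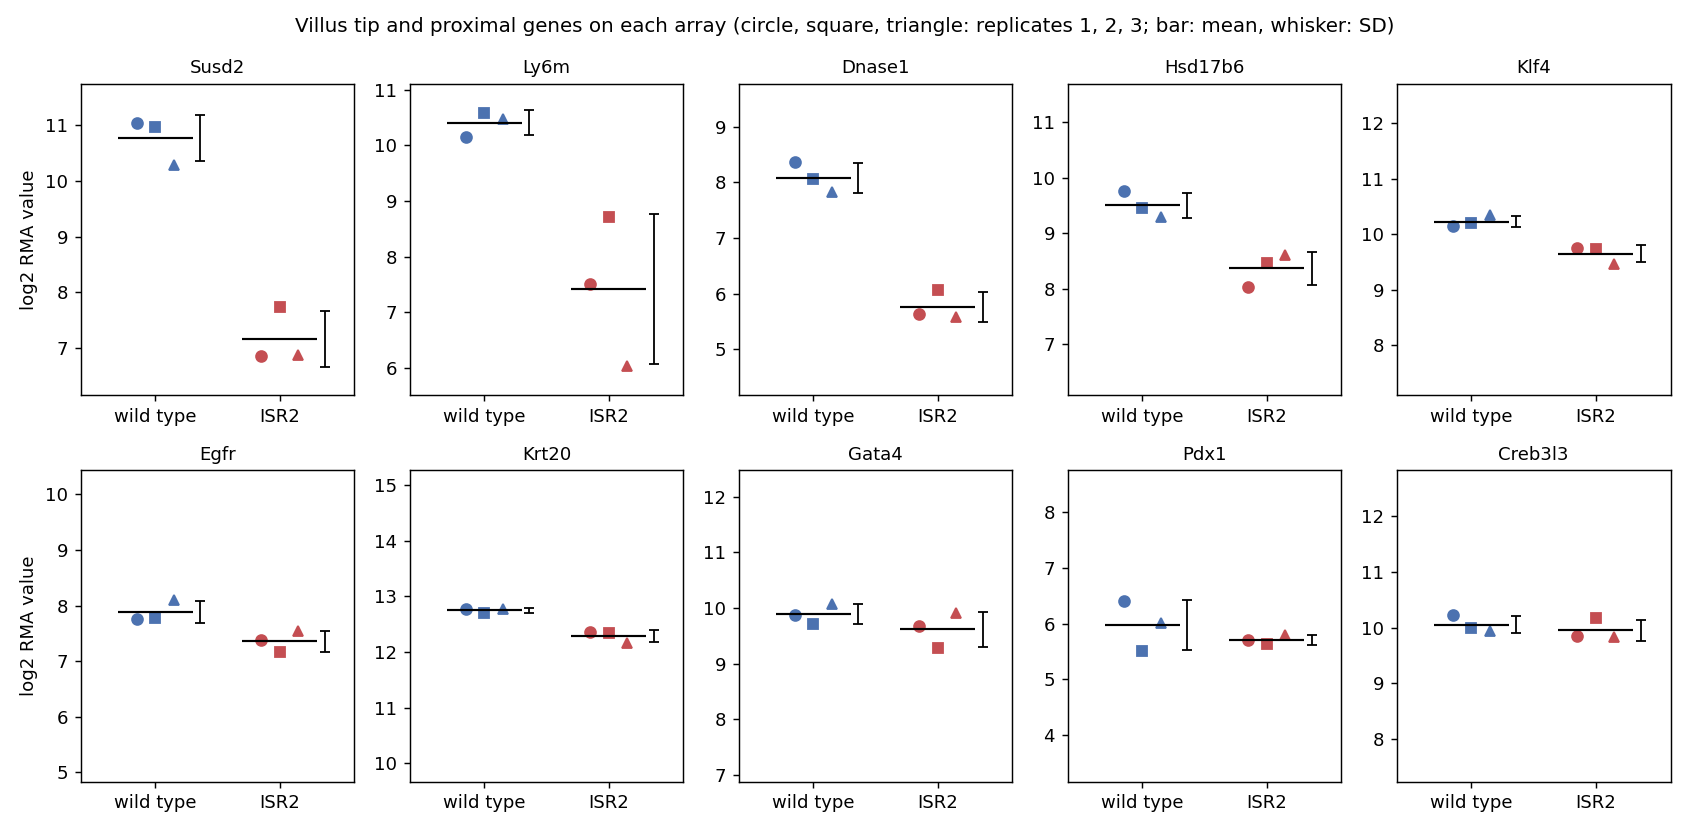
Log2 RMA value (vertical axes, which all span the same number of log2 units) of the 10 genes on each array, with wild type in blue and ISR2 in red. Circles, squares and triangles are replicates 1, 2 and 3, horizontal bars are group means and whiskers the SD (n = 3). The groups stand apart in the first 7 panels, from Susd2 to Krt20, and overlap in Gata4, Pdx1 and Creb3l3.

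Susd2, which encodes a membrane protein with a sushi domain, was at 11.04, 10.97 and 10.29 in wild type replicates 1, 2 and 3 and at 6.86, 7.73 and 6.87 in the ISR2 replicates. The lowest wild type array stood 2.56 above the highest ISR2 array, so the groups were far apart. On the log2 scale the difference was -3.62 ± 0.27 (SE, n = 3 in each group), with an adjusted p of 0.000106 in limma, the largest fall of all genes tested. It stayed between -4.14 and -3.47 under the 18 other settings that were tried, and passed under each of them. Of its relatives with sushi domains, Susd1, Susd3, Susd4 and Susd6 differed by 0.33, -0.11, -0.38 and -0.35, and none of the 4 passed. In 3 of the 4 the wild type mean was at or below the highest array median of 6.19. Whether a fall as large as that of Susd2 could be measured there was not tested.

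Ly6m belongs to the Ly6 family of small proteins that sit on the outer cell membrane by a lipid anchor. It was at 10.16, 10.59 and 10.48 in the wild type arrays and at 7.50, 8.72 and 6.03 in ISR2 replicates 1, 2 and 3. The groups did not overlap, but the ISR2 arrays ran over 2.69 log2 units where the wild type arrays ran over 0.43. The difference of -2.99 ± 0.54 (SE) had an adjusted p of 0.0176. The SD was 0.22 in wild type and 1.34 in ISR2 (n = 3), so the SE of the fit is smaller than these arrays alone would give. The difference was -3.64 without ISR2 replicate 2 and -2.30 without ISR2 replicate 3, so each of these arrays moved the fold by over 1.5 times. The value of ISR2 replicate 3 lay at that array's median and is not shown to be above background. That call ended when wild type replicate 1, wild type replicate 2 or else ISR2 replicate 1 was omitted, with a highest adjusted p of 0.0835 in limma, as it did under the robust option of the fit and a test over all rows of the table.

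Of the 10 Ly6 relatives measured, none fell and 1 rose: Ly6f, at 5.61, 5.77 and 5.77 in wild type and 6.55, 6.73 and 6.20 in ISR2 (difference 0.78 ± 0.16, SE; adjusted p = 0.0328). Ly6f stood near the array median, without a value that shows it above background, and with 1 array left out at a time it was called only without ISR2 replicate 3 (adjusted p up to 0.156). The median of the 10 relatives was -0.20, and -0.10 without ISR2 replicate 2. In 6 of the 10 the wild type mean was at or below 6.19 and is not shown to be above background, so a fall may have gone unmeasured. Ly6e, the neighbour of Ly6m in the gene table, differed by -0.35 ± 0.28 (SE). Members of this family are close in sequence, and cross-hybridisation among them was not tested.

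Dnase1 encodes the secreted nuclease that digests DNA. Its wild type values were 8.37, 8.05 and 7.83 and its ISR2 values 5.63, 6.07 and 5.58, a gap of 1.77 between the nearest arrays. The spread was alike in both groups (SD 0.27 and 0.27, n = 3), and the difference was -2.33 ± 0.18 (SE; adjusted p = 0.00014). All 3 ISR2 values lay near or below the array medians, and no detection call was used, so they are not shown to be above background. It was called under each of the 18 other settings, at values from -2.61 to -2.18. None of 5 relatives passed: Dnase1l1, Dnase1l2, Dnase1l3, Dnase2a and Dnase2b differed by 0.22, -0.13, -0.41, -0.36 and -0.07; for 2 of them, Dnase1l2 and Dnase2b, the wild type mean was at or below 6.19. Pancreatic acinar cells also make digestive nucleases. The 8 acinar markers measured averaged 6.22 to 6.35 in wild type and 5.98 to 6.03 in ISR2. All 8 were lower in mean and none passed. In 6 of the 8 the wild type mean was at or below 6.19 and is not shown to be above background, so a fall may have gone unmeasured. The part of acinar cells in the result was not tested.

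Klf4, Egfr and Krt20 were lower on every ISR2 array without passing. Klf4, a zinc finger factor of differentiating epithelium and of goblet cells, was at 10.14, 10.20 and 10.35 in wild type and at 9.75, 9.74 and 9.47 in ISR2. Its difference was -0.58 ± 0.13 (SE; adjusted p = 0.0601; 95% interval -0.88 to -0.27). It passed with an intensity trend or with array weights, the lowest adjusted p over the alternatives being 0.0259 and the highest 0.185. Goblet cell markers, which share this factor, held 1 call among 7, Spink4, which no fit with 1 array left out kept (adjusted p up to 0.16). They averaged 11.66 to 11.92 in wild type and 11.47 to 11.63 in ISR2; their part in the value of Klf4 was not tested.

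Egfr, the receptor for epidermal growth factor, had wild type values of 7.76, 7.78 and 8.11 and ISR2 values of 7.38, 7.16 and 7.54. The nearest arrays were 0.22 apart, about the size of the SD in either group (0.20 and 0.19, n = 3). The difference was -0.53 ± 0.15 (SE; adjusted p = 0.145; 95% interval -0.87 to -0.18), and it passed only with array weights (adjusted p = 0.0457), a fit that gave ISR2 replicate 1 a weight of 4.06 and the other ISR2 arrays 0.40 and 0.67. Krt20, the keratin of mature villus cells, varied least of these 3: 12.78, 12.69 and 12.78 in wild type and 12.36, 12.34 and 12.16 in ISR2. Its difference of -0.46 ± 0.12 (SE; adjusted p = 0.0981) passed with an intensity trend or with array weights (lowest adjusted p 0.0408). The other keratins of simple epithelia, Krt7, Krt8, Krt18, Krt19 and Krt23, overlapped between the groups, at 0.39, -0.12, -0.21, 0.04 and -0.31.

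The KLF family held no common direction. Of 16 relatives of Klf4, 2 rose and none fell: Klf7, from 8.00 ± 0.17 to 8.69 ± 0.02, and Klf11, from 6.80 ± 0.11 to 7.40 ± 0.10 (mean ± SD, n = 3; adjusted p = 0.0224 and 0.039). Both are calls at the margin. With 1 array left out at a time, Klf7 passed only where replicate 2 of either group was the one missing (adjusted p up to 0.118), and Klf11 in none of the 6 fits (up to 0.18). Klf5, a factor of dividing crypt cells, was at 0.08 ± 0.15 (SE), and Klf15 at -0.62 ± 0.15 (SE; adjusted p = 0.0756). The median of the 16 was 0.00, and between -0.09 and 0.03 with 1 array left out at a time, the lowest without wild type replicate 3.

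Around the receptor, 2 of 11 genes of the EGFR pathway fell and none rose, with a median of -0.16, which was -0.07 without wild type replicate 3. Hbegf, a membrane-anchored ligand of EGFR, was at 8.68, 8.22 and 8.12 in wild type and 6.88, 7.29 and 6.95 in ISR2, with no overlap. On the log2 scale it fell by 1.31 with an SE of 0.18 (adjusted p = 0.00441), and it was called whichever array was left out. Errfi1, a feedback inhibitor of the receptor, fell by 0.93 (SE 0.17; adjusted p = 0.0186), and with 1 array left out at a time it was called only without wild type replicate 3 or without ISR2 replicate 2, with an adjusted p of up to 0.0963. The ligand genes Egf, Tgfa, Ereg, Btc and Epgn differed by -0.16, 0.11, -0.21, 0.01 and 0.10. The related receptors Erbb2, Erbb3 and Erbb4 differed by -0.37, -0.43 and -0.12, and none of these 8 passed. In 5 of the 11 pathway genes the wild type mean was at or below the highest array median of 6.19. It is not shown to be above background there, so a fall may have gone unmeasured.

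BMP signals from the stroma are known to push villus cells to mature, and 14 genes of that pathway were read beside the tip genes. Of these, 1 fell and none rose, with a median of -0.11, which was -0.07 without ISR2 replicate 2. The call was Bmp2, a ligand also made by villus epithelium, at 6.98, 6.90 and 7.14 in wild type and 6.30, 5.95 and 5.89 in ISR2 (difference -0.96 ± 0.15, SE; adjusted p = 0.00781). It too was called whichever array was left out. The values of ISR2 replicates 2 and 3 lay below those arrays' medians and are not shown to be above background. The target genes Id1 and Id3 had no overlap between the groups at -0.50 ± 0.13 and -0.33 ± 0.13 (SE) but did not pass, and the receptor gene Bmpr1a was at 0.03 ± 0.12 (SE).

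**Figure D2:**
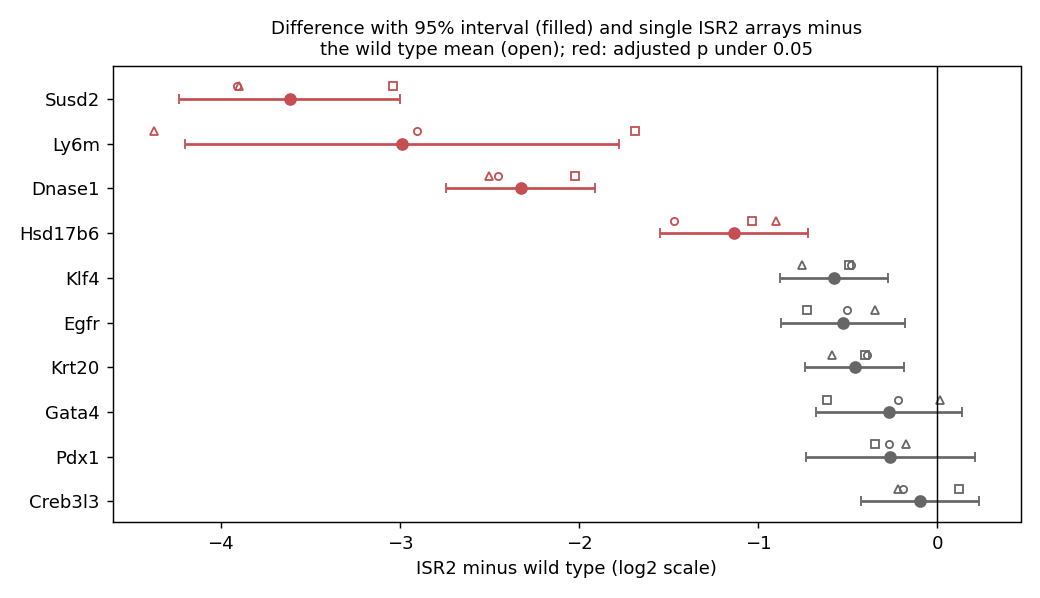
ISR2 minus wild type on the log2 scale for each of the 10 genes. Filled points are the fitted differences and bars their 95% intervals; open circles, squares and triangles are ISR2 replicates 1, 2 and 3 minus the wild type mean. Red marks an adjusted p under 0.05, as for Susd2, Ly6m, Dnase1 and Hsd17b6. The ISR2 arrays of Ly6m are the most widely spread, from -4.37 to -1.69.

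The transcription factor Creb3l3, a membrane-bound factor of the endoplasmic reticulum that drives lipoprotein genes, showed the smallest difference of the 10. It was at 10.22, 9.99 and 9.94 in wild type and at 9.86, 10.17 and 9.83 in ISR2, so that ISR2 replicate 2 stood above 2 of the 3 wild type arrays. The difference was -0.10 ± 0.15 (SE; adjusted p = 0.854; 95% interval -0.43 to 0.23). Its 6 relatives likewise held no call, the lowest being Creb3l2 at -0.69 ± 0.17 (SE; adjusted p = 0.0732). Among 8 measured genes listed as linked to CREB3L3, 1 fell: Apoc3, an apolipoprotein of triglyceride-rich particles. It was at 11.91, 11.57 and 11.50 in wild type and 9.78, 10.55 and 9.49 in ISR2. Whether the factor raises or lowers each of these 8 genes was not tested. Apoa4, Apoa1 and Cidec were lower without overlap, at -0.49 ± 0.14, -0.51 ± 0.14 and -0.74 ± 0.17 (SE), and did not pass (adjusted p = 0.147, 0.108 and 0.0515). The median of the 8 was -0.42. In 4 of the 8 the wild type mean was at or below the highest array median of 6.19. It is not shown to be above background there, so a fall may have gone unmeasured. Without ISR2 replicate 2 the calls were 4 of 8, Apoc3, Apoa4, Apoa1 and Cidec; without any other single array Apoc3 was the only call.

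Other tip genes were read from a list of 12 that does not include the 10 genes; it too was drawn up with earlier results known. In it 4 fell and none rose, and 7 had no overlap, all of them downward. Over all genes 1.23% were called lower and 13.9% had no overlap downward. The median of the 12 was -0.53. The 4 were Ada, adenosine deaminase, Nt5e, which forms adenosine from AMP, Slc28a2, a nucleoside carrier, and Enpp3, an ectonucleotidase, at -3.47 ± 0.69, -2.56 ± 0.30, -3.10 ± 0.40 and -2.46 ± 0.41 (SE). Ada was at -4.36 without ISR2 replicate 2 and at -2.66 without ISR2 replicate 3. Pmp22, Serpinb1a and Apoa4 had no overlap at -0.85 ± 0.30, -0.57 ± 0.16 and -0.49 ± 0.14 (SE) without passing. Cdh1, the adhesion protein of epithelial cells, was at 0.04 ± 0.19 (SE), and the immediate early genes Fos and Junb at -0.50 ± 0.27 and -0.15 ± 0.13. Downward separation was also seen in 5 of 8 enterocyte markers, 5 of 8 other proximal genes and 7 of 9 T cell markers. It was seen in 3 of 8 villus base genes, and in 0 of 5 Paneth cell and 0 of 9 stroma markers.

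Among the 10 genes ISR2 replicate 2 was the highest ISR2 array in 4 and the lowest in 3, and replicate 3 was the lowest in 5. Ly6m, Slc28a2, Nt5e, Enpp3 and Ada each had ISR2 replicate 2 as the highest and ISR2 replicate 3 as the lowest ISR2 array. Slc28a2, for instance, was at 5.99, 7.33 and 5.41 in ISR2 replicates 1, 2 and 3, and at 9.35, 9.51 and 9.16 in wild type; its ISR2 replicates 1 and 3 lay below those arrays' medians and are not shown to be above background. Susd2 and Dnase1 also had replicate 2 highest, but their replicates 1 and 3 differed by only 0.01 and 0.05. Over all genes replicate 2 was the highest ISR2 array in 36.8%, and among the genes called lower in 50.8%; replicate 3 was the lowest in 36% and 42.7%. Leaving out ISR2 replicate 2 gave 6 calls among the 12 listed tip genes, all lower. Leaving out wild type replicate 1 or ISR2 replicate 1 gave 2, Nt5e and Slc28a2, and leaving out wild type replicate 2 gave these and Enpp3 (adjusted p of Ada up to 0.147).

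**Figure D3:**
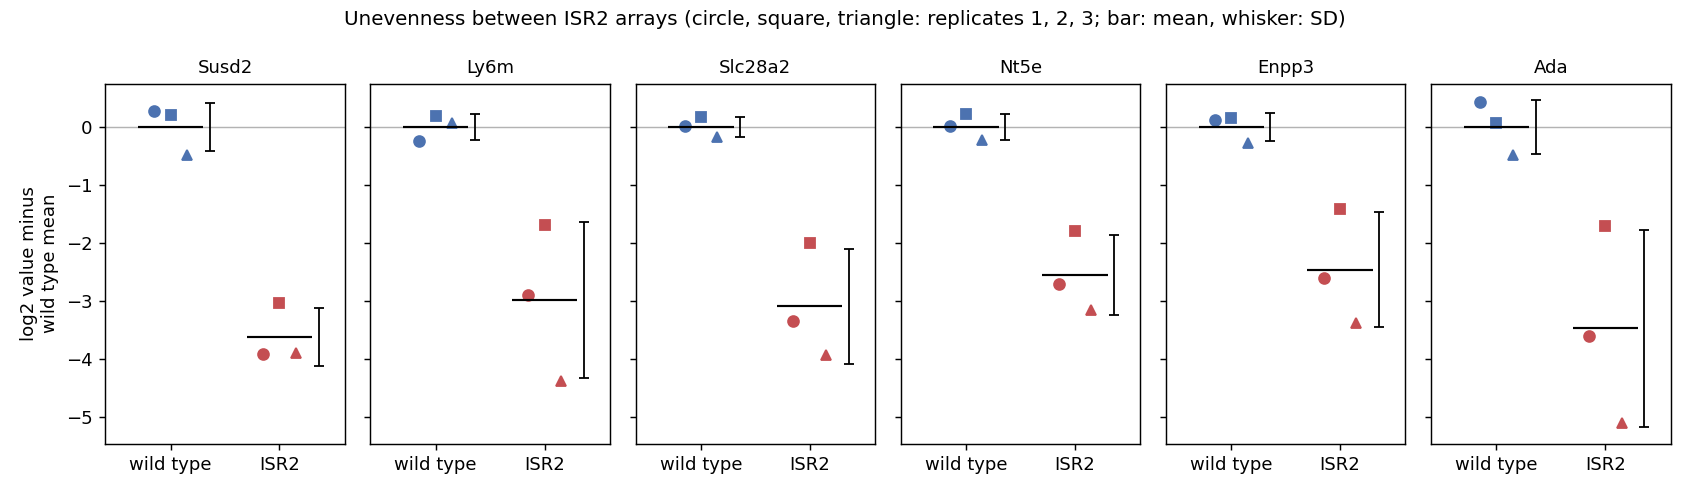
Log2 value of 6 genes on each array after subtraction of the wild type mean, with wild type in blue and ISR2 in red; circles, squares and triangles are replicates 1, 2 and 3, bars are means and whiskers the SD (n = 3). In every panel the square of ISR2 replicate 2 is the highest ISR2 point, and in Ly6m, Slc28a2, Nt5e, Enpp3 and Ada the triangle of replicate 3 is the lowest.

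The genes whose 6 values ran closest to those of a member were found over the whole table, by the root mean square difference after each gene was centred on its wild type mean. This measure used the contrast that chose the members, so it describes likeness only. The nearest to Ly6m were Slc28a2, Enpp3 and Nt5e, at 0.32, 0.49 and 0.53 log2 units over the 6 arrays. Slc28a2 was also the nearest to Susd2, at 0.51, followed by Vnn1, which frees pantothenate from pantetheine, at 0.63 and Pck1, a gluconeogenic enzyme, at 0.70. Dnase1 was closest to Slc23a4, a carrier of nucleobases, at 0.28, to Reg1, a secreted lectin, at 0.31 and to Cym, the milk-clotting protease chymosin, at 0.32. Each of these 8 genes was itself called lower.

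Hsd17b6, a steroid and retinol dehydrogenase of the proximal gut, was the one proximal gene among the members that fell. It was at 9.75, 9.45 and 9.30 in wild type and 8.03, 8.47 and 8.60 in ISR2. All ISR2 arrays lay below all wild type arrays, by 0.70 at the nearest pair, and here replicate 3 was the highest ISR2 array. The difference was -1.13 ± 0.18 (SE; adjusted p = 0.00994), and the call was lost only without wild type replicate 1 (adjusted p = 0.0533).

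Among 15 related dehydrogenases 3 fell and 3 rose. Rdh9 fell from 9.10 ± 0.33 to 7.52 ± 0.29, Hsd17b2, which inactivates sex steroids, from 9.08 ± 0.30 to 7.80 ± 0.32, and Rdh16 from 6.61 ± 0.39 to 5.53 ± 0.26 (mean ± SD, n = 3), which in ISR2 is below the array medians and not shown to be above background. With 1 array left out at a time, Rdh16 was called only without wild type replicate 3 or without ISR2 replicate 2 (highest adjusted p 0.145). Hsd17b2 was called in all 6 fits but the one lacking wild type replicate 1, where its adjusted p was 0.0518. The rises were those of Hsd17b7, an enzyme of cholesterol synthesis, by 3.55 ± 0.15, Hsd17b12, of fatty acid elongation, by 1.94 ± 0.16, and Hsd17b13, a lipid droplet protein, by 0.81 ± 0.16 (SE). The last was called in only 1 of the 6 fits without 1 array, the one without ISR2 replicate 1. The closely related Rdh7, Rdh1 and Rdh19 were at -0.17, -0.07 and 0.04 without passing, and signal shared between probes of such close copies was not tested.

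Gata4 and Pdx1, the regulators of proximal identity, overlapped between the groups. Gata4 was at 9.88, 9.71 and 10.07 in wild type and at 9.67, 9.28 and 9.91 in ISR2 (difference -0.27 ± 0.18, SE; adjusted p = 0.605; 95% interval -0.68 to 0.14). ISR2 replicate 3 stood above 2 of the 3 wild type arrays, and ISR2 replicate 2 was the lowest of all 6. Pdx1 was at 6.41, 5.51 and 6.01 in wild type and 5.71, 5.63 and 5.80 in ISR2, near the array medians and not shown to be above background. Its wild type arrays spread more (SD 0.45) than its ISR2 arrays (SD 0.09), and the difference of -0.26 ± 0.21 (SE; adjusted p = 0.678) had an interval from -0.73 to 0.21. These intervals leave room for moderate changes in either gene, so they do not show equal levels.

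The relatives of Gata4 gave no call among 7. Gata5 was lower on every ISR2 array, from 10.57, 10.06 and 10.40 to 9.78, 9.71 and 9.63, at -0.64 ± 0.15 (SE; adjusted p = 0.0675), and Gata6 was at -0.18 ± 0.12 (SE). Of 6 other transcription factors of gut position, including Cdx2 of the intestine at 0.24 ± 0.16 and Hnf4a of enterocytes at 0.15 ± 0.12 (SE), none passed. Hnf4a was the one of these 6 with no overlap, and it was higher in ISR2.

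Further genes of gut position were read on both sides. Of 8 other proximal genes 1 fell, Slc46a1, the proton-coupled folate carrier, at 11.45, 11.13 and 11.05 in wild type and 9.52, 10.53 and 10.03 in ISR2. With 1 array left out at a time it was called only without ISR2 replicate 2 (adjusted p up to 0.157), and centring each array on its median gave an adjusted p of 0.0508. Lct, the lactase gene, was at -0.48 ± 0.14 (SE; adjusted p = 0.131) with no overlap, and Fabp1, a fatty acid binding protein, at 0.14 ± 0.12. The median of the 8 was -0.34. Of 7 distal genes 1 rose and 1 fell, with a median of -0.26, which was -0.40 without wild type replicate 3. Slc10a2, the ileal bile acid carrier, rose from 4.53, 4.51 and 4.81 to 5.48, 5.78 and 5.63, below the medians of the arrays and not shown to be above background. Slc51a, of basolateral bile acid export, fell by 0.67 (SE 0.13), and with 1 array left out at a time was called only without wild type replicate 2 (highest adjusted p 0.152). Median centring also ended that call (adjusted p = 0.0732). Fabp6 and Fgf15 were at -0.26 ± 0.13 and -0.15 ± 0.17 (SE), and Cubn, the receptor for vitamin B12, at -1.09 ± 0.26 (SE; adjusted p = 0.0625).

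Lower villus positions also held calls. In the list of villus base genes 2 of 8 fell, Reg1 and Reg3a, both secreted lectins, by 1.94 (SE 0.27) and 1.11 (SE 0.21), with a median of -0.44. That median was -0.76 without wild type replicate 3, and -0.20, -0.23 and -0.22 without wild type replicate 1, wild type replicate 2 and ISR2 replicate 3. Reg3a lost its call without ISR2 replicate 1 or 3 (adjusted p up to 0.126). Among 8 carriers of the villus middle 1 fell, the peptide carrier Slc15a1, by 1.21 (SE 0.16), and the glucose carrier Slc5a1 was at -0.03 ± 0.13 (SE); the median was -0.35. Of the enterocyte markers 1 of 8 fell, Alpi, the intestinal alkaline phosphatase, at -0.77 ± 0.16 (SE), with a median of -0.24. With 1 array left out at a time it was called only without ISR2 replicate 2 (adjusted p up to 0.194), and median centring gave 0.0882. The differences between these lists were not tested.

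**Figure D4:**
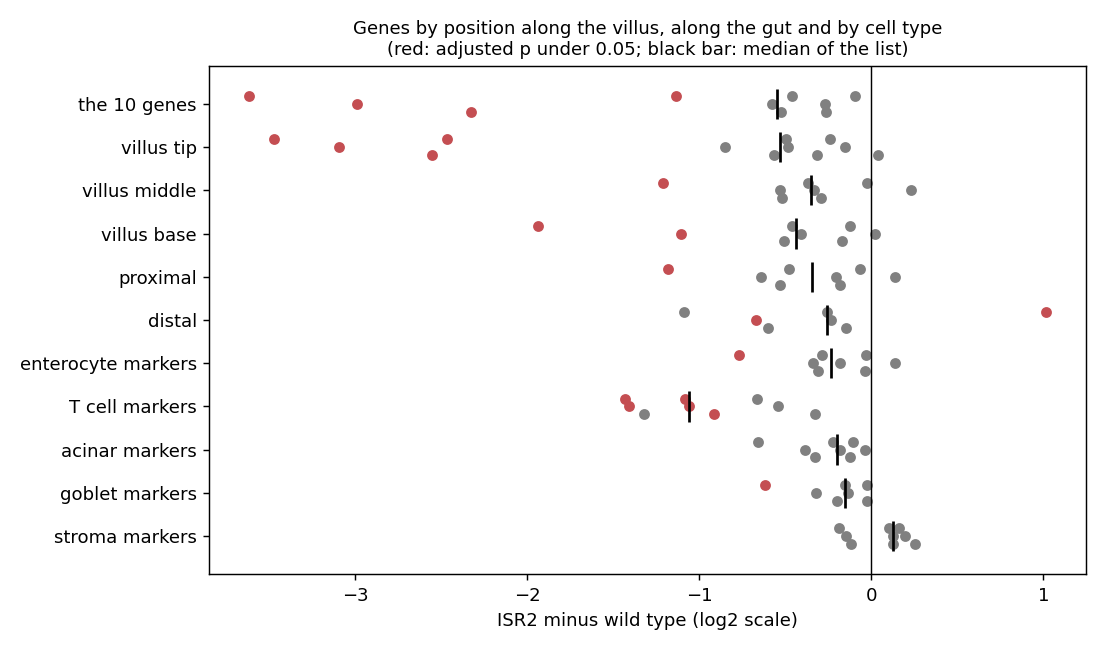
ISR2 minus wild type on the log2 scale for each measured gene (points) of the lists named on the vertical axis, with red for an adjusted p under 0.05 and a black bar for the median of the list. The points at the far left are Susd2, Ly6m and Dnase1 among the 10 genes and Ada, Slc28a2, Nt5e and Enpp3 among the other tip genes; the point at the right in the distal list is Slc10a2.

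Markers of other cells moved beside these genes. Of 9 T cell and intraepithelial lymphocyte markers 5 fell and none rose, and their mean was 7.73 to 8.22 in the wild type arrays and 6.72 to 7.29 in the ISR2 arrays. Leaving out wild type replicate 1 or 2 or ISR2 replicate 3 left 3 of these calls, Cd3e, Cd7 and Gzmb. Of 6 B cell, 5 Paneth cell, 8 enteroendocrine, 7 stem and dividing cell and 9 stroma markers none passed. Their medians were -0.35, -0.55, -0.14, -0.05 and 0.125 in that order, and all 6 B cell and all 5 Paneth cell markers were lower in mean. With 1 array left out at a time the Paneth cell median ran from -0.78 to -0.27. The mean of the stroma markers ran from 7.41 to 9.71 in wild type and from 8.03 to 9.09 in ISR2, with wild type replicate 2 the highest array. Of 7 myeloid markers Cd14 rose. The part of these cells in the values of the 10 genes was not tested.

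**Figure D5:**
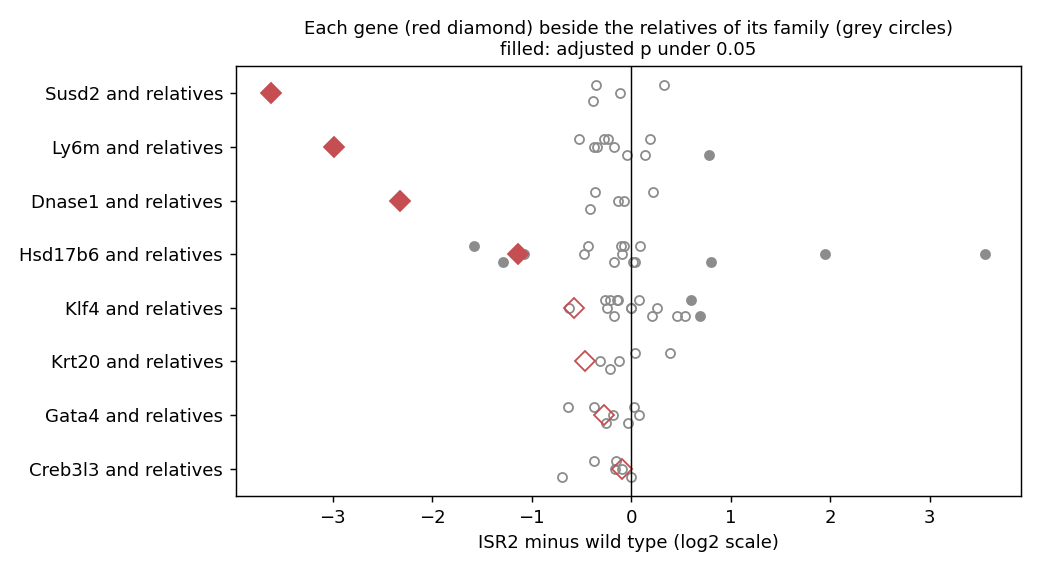
ISR2 minus wild type on the log2 scale for 8 of the 10 genes (red diamonds) and the measured relatives of each (grey circles); filled symbols have an adjusted p under 0.05. Susd2, Ly6m and Dnase1 lie to the left of their relatives. Of these relatives 3 of 4, 6 of 10 and 2 of 5 had a wild type mean at or below 6.19, not shown to be above background. Hsd17b6 lies among relatives that were called in both directions, with Hsd17b7 at the far right.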

How the data were processed

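Biotin-labelled RNA of the 6 scrapings was prepared by Affymetrix's whole-transcript protocol, per the labels. The deposited log2 values were made by the authors with RMA, per the submitters' processing notes; no source used here gives the RMA version or a filter. Quantile steps in RMA are meant to remove shifts shared by most genes. In the deposited values 62.6% of all genes were still lower in ISR2 in mean, with a median difference of -0.06 on the log2 scale.

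Of 35556 rows, 21789 had 1 symbol in the platform annotation, 1621 several and 12146 none. For the 999 genes with several probe sets the one with the highest mean over all arrays was used, which left 19938 genes. Groups came from sample titles. ISR2 was set against wild type over all genes in limma 3.58.1 (lmFit, then eBayes; R 4.3.3), two-sided, with Benjamini-Hochberg adjustment and a threshold of 0.05. No intensity filter or detection call was used. The steps were also run on simulated data with independent normal noise, of the same spread on every array for a given gene. That run checks the code and not how the fit performs on arrays of uneven spread. Figures were drawn with matplotlib 3.10.9. The members, the gene lists, the alternatives and the rule for named genes (all members, called or lowest-p list genes, relatives of members, the 3 nearest genes of 3 members) were chosen with earlier results of these data known. Other list genes were named after their values were seen. Promoters are RefSeq's on GRCm38.p6, matched by symbol, for 7 of 10 members.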

Additional observations from a re-analysis of the deposited data

How the results depend on the processing

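Of 180 values of the 10 genes under 18 other settings, 167 kept direction and call, 6 lost the call, 7 gained it and none changed sign. The members called numbered 4, and 7 with array weights. They numbered 6 with an intensity trend or an adjusted threshold of 0.10, and 3 with the robust option or all rows tested. Without 1 array each they numbered 2 to 4. Over all genes 602 were called, 356 higher and 246 lower. With array weights, 4.06 for ISR2 replicate 1 and 0.40 to 1.16 for the others, the counts were 1268, 630 and 638. The genes called lower were 155 after median centring, 106 with all rows tested, 386 with the adjusted threshold at 0.10, and 404 with a 1.5-fold change and 0.05 unadjusted. Leaving out 1 array at a time gave 335 to 589 calls, 236 to 353 higher and 85 to 236 lower; wild type replicates 1 and 2 and ISR2 replicate 1 moved the total by over 1.5 times, and ISR2 replicate 3 the falls. Without wild type replicate 3 and ISR2 replicate 2 together 775 were called, 472 higher and 303 lower. The cause of these shifts was not tested. With the replicate number as a block 778 genes and 4 members were called. Deviations of same-numbered arrays correlated at -0.02, 0.32 and 0.54 across genes, and those of differently numbered arrays at -0.54 to 0.20. These values do not settle whether the arrays are pairs. The numbers were not taken as pairs because no pairing is stated. Each member has 1 probe set, so no other row of a member could be tried. Without detection calls, values near the array medians, as for Pdx1, for Dnase1 in ISR2 and for Ly6m in ISR2 replicate 3, are not shown to be above background.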

Other observations

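The genes beside the members on the chromosome were read for names and values only, an addition made after the data were seen. Of the 80 nearest measured protein-coding genes, 4 on each side of each member, 1 was called. It was Fdft1, the squalene synthase gene of cholesterol synthesis, which lies 2 measured genes from Gata4 and differed by 3.70 ± 0.15 (log2, SE; higher in ISR2; adjusted p = 2.29e-06 in limma), while Gata4 differed by -0.27 ± 0.18 and Neil2, between them, by 0.00 ± 0.12. The genes next to Susd2 were Ggt5 and Cabin1, at 0.20 ± 0.15 and 0.04 ± 0.16, and those next to Dnase1 were Slx4 and Trap1, at -0.19 ± 0.13 and 0.12 ± 0.20. Beside Hsd17b6 the dehydrogenase gene Rdh16f2 was at -0.81 ± 0.20 without passing (adjusted p = 0.0785), and Sdr9c7, which lies next to Hsd17b6, was at 0.09 ± 0.19.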
